A study of Mus musculus with 6 samples.

Results

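Bone morphogenetic protein (BMP) signalling was described here in whole mouse kidneys at embryonic day 12.5 through 10 genes, grouped by role. The ligands were Bmp2, Bmp4 and Bmp7. Bmper, Grem1 and Bambi act on the ligands or their receptors, and Id1, Id2, Id3 and Smad6 are target and feedback genes. Members were chosen by symbol, and every probe set whose platform annotation gave exactly that 1 symbol was taken, which found 14 probe sets for the 10 genes among 45101 probe sets on the array. Bmp7 and Id2 had 3 probe sets each, which share their target gene and are not independent, and the other 8 genes had 1 each.

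The series compared 3 arrays of kidneys from normal mice, whose genotype is not described further in the labels, with 3 arrays of kidneys in which a floxed beta-catenin gene (Ctnnb1), with loxP sites around exons 2 to 6, was combined with Hoxb7-Cre:Gfp. The Hoxb7 promoter drives Cre in the nephric duct and ureteric bud. Deletion is therefore expected there and not in cells of the mesenchyme, stroma and vessels, which was not checked here. Kidneys were sorted at random into vials, and how many animals each vial pooled is not stated, so p-values measure the spread between vials, part of which may be technical. Groups follow the sample titles. The description field of the knockout samples repeats the wording for normal kidneys.

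BMPs are secreted dimers that bring type I and type II serine/threonine kinase receptors together. The activated receptors phosphorylate receptor Smads, which enter the nucleus with Smad4 and raise transcription of Id genes and of inhibitory Smads. In the early kidney, Bmp7 is made by the ureteric bud and nephron progenitors and keeps progenitors alive and dividing, Bmp4 from the mesenchyme around the duct and ureter restrains budding, and Gremlin 1 blocks BMP locally so that the bud can branch.

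Upstream sequence was given for 6 of the 10 genes in the RefSeq promoter table (GRCm38.p6). The 250 bases before the annotated start are shown for Id2, Id3 and Smad6, 3 genes that BMP signalling is known to switch on. Id1 was not among the 6. Whether the signals of these genes follow BMP activity in these kidneys was not tested. Capitals mark GGCGCC, the GC-rich element bound by BMP-responsive Smads, and CAGAC (or GTCTG on the other strand), the Smad box. Both strands were searched, and GGCGCC reads the same on each.
Id2, chr12:25096093-25096342, minus strand: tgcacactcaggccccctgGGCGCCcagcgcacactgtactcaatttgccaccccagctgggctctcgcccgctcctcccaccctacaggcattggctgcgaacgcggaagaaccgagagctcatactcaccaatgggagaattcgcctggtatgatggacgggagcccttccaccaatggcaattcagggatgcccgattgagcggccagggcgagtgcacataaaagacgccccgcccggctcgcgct
Id3, chr4:136143572-136143821, plus strand: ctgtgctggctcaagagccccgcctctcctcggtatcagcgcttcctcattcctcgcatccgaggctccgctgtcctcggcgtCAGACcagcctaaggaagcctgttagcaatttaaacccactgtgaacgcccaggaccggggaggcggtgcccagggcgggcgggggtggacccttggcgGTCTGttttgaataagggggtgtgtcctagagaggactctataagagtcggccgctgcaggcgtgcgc
Smad6, chr9:64022060-64022309, minus strand: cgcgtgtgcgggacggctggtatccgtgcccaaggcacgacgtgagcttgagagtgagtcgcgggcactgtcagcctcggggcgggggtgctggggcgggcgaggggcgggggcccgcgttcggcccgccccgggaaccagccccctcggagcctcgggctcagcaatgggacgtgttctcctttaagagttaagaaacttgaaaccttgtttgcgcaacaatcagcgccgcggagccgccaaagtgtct

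Id2 held 1 GGCGCC, beginning 231 bases before the start, and no CAGAC. Id3 held CAGAC at 167 and GTCTG at 68 bases before the start and no GGCGCC. Neither motif occurred in this window of Smad6. Of the other 3 windows, Grem1 held 1 GGCGCC and 1 CAGAC, and those of Bmp4 and Bmper held neither. GGCGCC was present in 9.59% and CAGAC in 42.2% of all 32851 promoter windows of this length, so a match describes the letters only.

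Values are MAS5 signals, the linear intensity that Affymetrix software gives to each probe set. All 26 members of the nephron progenitor, stroma and ureteric marker lists (8, 8 and 10 genes) were measured above the filter on dim probe sets, a mean signal of 14.7 over the arrays. Log2 signals of the kept probe sets correlated at 0.961 to 0.977 within groups and at 0.951 to 0.974 between them. The 3 Ctnnb1 probe sets read 5707 to 6760, 907 to 1171 and 1680 to 2247 on normal arrays and 6586 to 6779, 1045 to 1222 and 2185 to 2380 on knockout arrays, and none passed (smallest limma adjusted p = 0.601). Where those probes lie relative to the deleted exons is not analysed here, so they do not check the labels. Skeletal muscle genes were uneven, with a summed signal over 9 markers of 401 to 509 on normal arrays and of 1179, 6024 and 507 in knockout replicates 1 to 3.

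Of the 14 member probe sets, 13 lay above the filter, and 0 of them passed the threshold (limma, Benjamini-Hochberg adjusted p under 0.05 over 27022 kept probe sets), where 0.581% of all kept probe sets passed. An unadjusted limma p under 0.05 was found for 2 of the 13, both lower in the knockout, against 11.5% of all kept probe sets. The groups did not overlap for 4 of the 13, against 17.9% of all. These were Bmp2 and 1 probe set of Bmp7, lower in the knockout (8.69% of all kept probe sets), and Id1 and 1 probe set of Id2, higher (9.17% of all). The median log2 difference was -0.07 over the 13 and -0.01 over all kept probe sets. Differences ran from -0.35 to 0.20, and the median distance from a difference to the end of its 95% interval was 0.30.

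**Figure D1:**
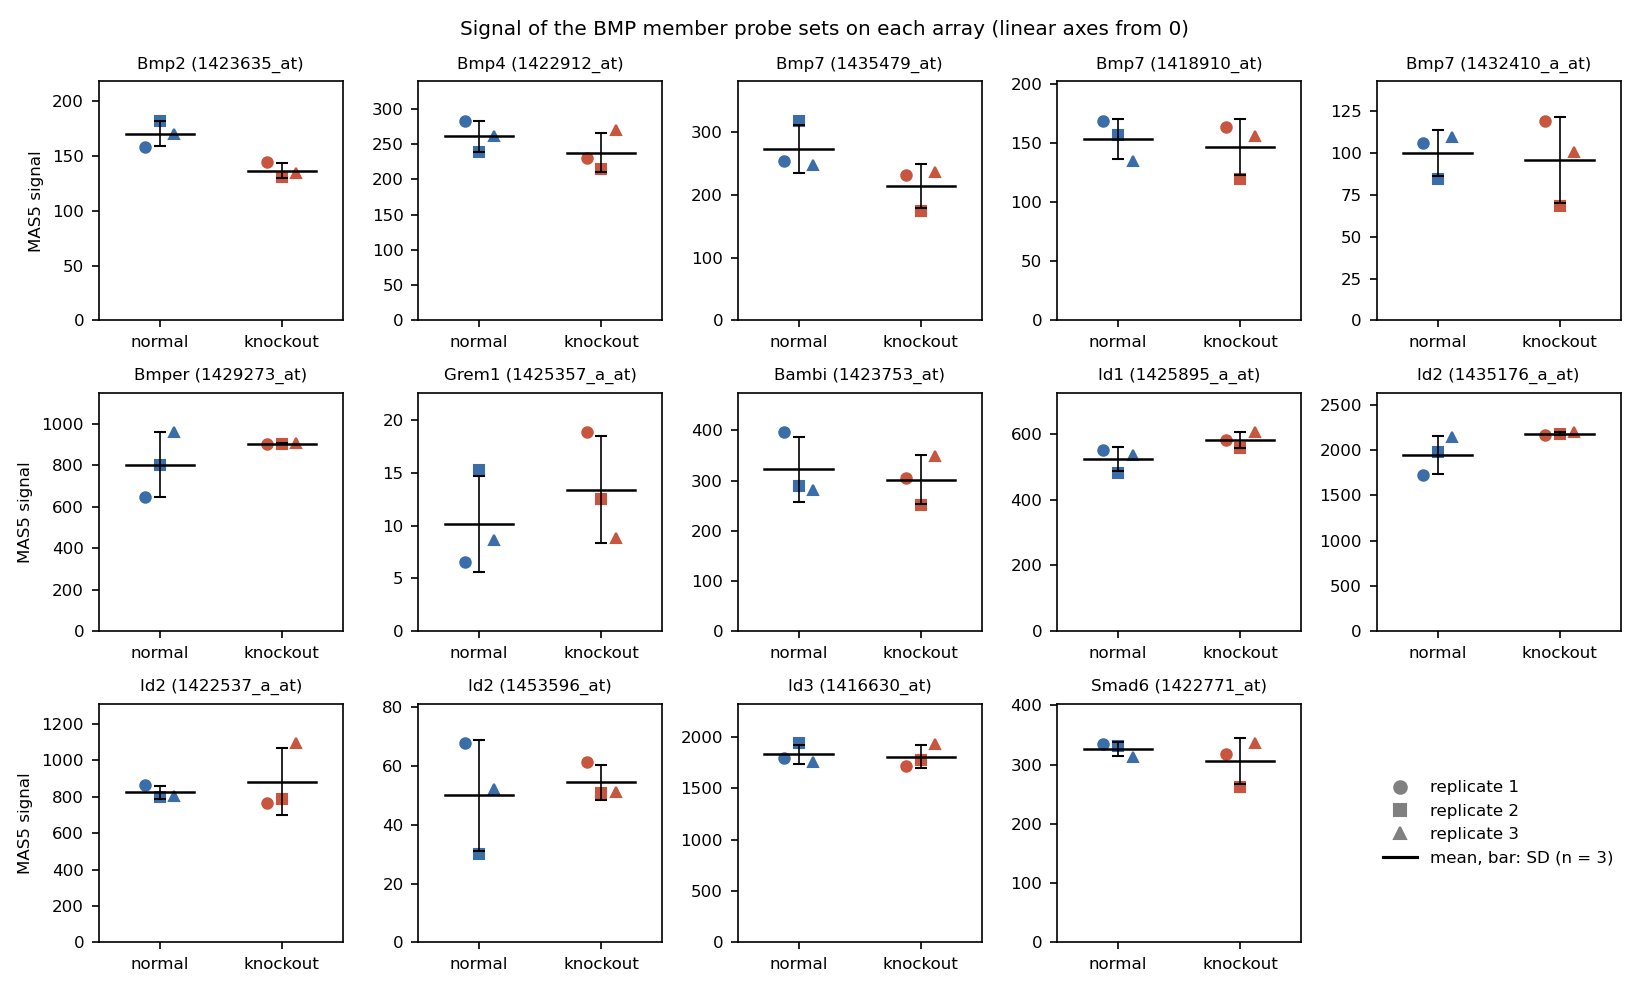
MAS5 signal (linear vertical axes from 0) of the 14 member probe sets on the 3 normal (blue) and 3 knockout (red) arrays; symbols mark the replicate, horizontal lines the group mean and bars the SD. Bmp2 on the knockout arrays lies at 131 to 144, under all normal arrays, and Id1 at 556 to 604, above all of them, while Grem1 stays between 6.6 and 18.8.

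Among the ligands, Bmp2 had the lowest p of all members. Its signal was 158.6, 181.6 and 170.4 on the normal arrays (here and below in the order of replicates 1 to 3) and 144.4, 130.9 and 134.4 on the knockout arrays. Every knockout array lay below every normal array. The mean was 170.2 ± 11.5 in normal and 136.6 ± 7.01 in knockout kidneys (SD, n = 3 per group). This is a log2 difference of -0.32 (SE 0.12), or 0.80 of the normal level with a 95% interval from 0.66 to 0.97. It did not pass over all probe sets (limma adjusted p = 0.398). In these whole-kidney samples, fewer cells of the type that expresses a gene and less of its RNA per cell cannot be told apart.

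Bmp4, the ligand of the periureteric mesenchyme, read 282.0, 238.5 and 261.1 on normal arrays and 229.4, 214.9 and 269.0 on knockout arrays. The groups overlapped, since knockout replicate 3 lay above normal replicates 2 and 3. The log2 difference was -0.14 (SE 0.12; limma adjusted p = 0.697), and its 95% interval, from 0.75 to 1.11 of the normal level, leaves room for a modest change in either direction. The difference was -0.08 without normal replicate 1, -0.07 without knockout replicate 2 and -0.23 without knockout replicate 3.

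Bmp7 was measured by 3 probe sets that differed in how clearly the groups separated. The brightest (1435479_at) read 254.3, 317.5 and 247.3 on normal and 232.2, 174.1 and 236.4 on knockout arrays, with no overlap. Its means were 273.0 ± 38.7 and 214.2 ± 34.8 (SD, n = 3 per group), which is -0.35 as a log2 difference (SE 0.16; limma adjusted p = 0.436), or 0.78 of the normal level with a 95% interval from 0.61 to 1.00.

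The other Bmp7 probe sets did not separate the groups. One (1418910_at) read 168.4, 156.9 and 134.7 on normal and 163.8, 119.5 and 156.4 on knockout arrays, a log2 difference of -0.07 (SE 0.16; limma adjusted p = 0.891). The dimmest (1432410_a_at) read 105.7, 84.2 and 109.7 on normal and 118.8, 68.1 and 100.4 on knockout arrays, a log2 difference of -0.09 (SE 0.22; limma adjusted p = 0.905). On both, knockout replicate 2 stood below all other arrays, and knockout replicates 1 and 3 lay within or above the normal range. Averaged over its 3 probe sets, Bmp7 differed by -0.17 (SE 0.15; limma adjusted p = 0.681).

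**Figure D2:**
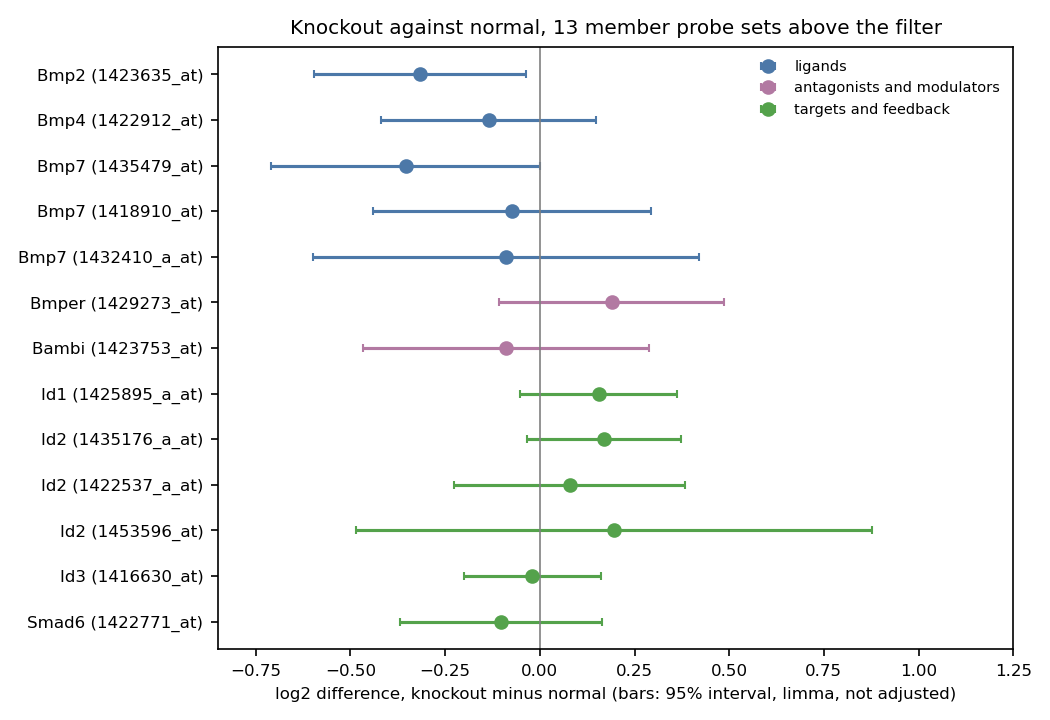
Log2 difference, knockout minus normal (horizontal axis; bars are unadjusted 95% intervals from limma), for the 13 member probe sets above the filter, coloured by role. All 5 ligand probe sets, most of them of Bmp7, lie left of 0, between -0.35 and -0.07. Of the 6 probe sets of targets and feedback genes, 4 lie right of 0, all of Id1 or Id2. Of all kept probe sets, 51.9% had a negative difference.

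Only Bmper and Bambi of the extracellular and membrane regulators among the members lay above the filter. Bmper, a secreted BMP-binding protein also called crossveinless 2, had a positive difference. It read 646.8, 802.2 and 957.9 on normal and 902.4, 900.8 and 907.2 on knockout arrays. The knockout arrays lay close together inside the wide normal range, so the groups overlapped. The log2 difference was 0.19 (SE 0.13; limma adjusted p = 0.606), with an interval from 0.93 to 1.40 of the normal level. The highest array was 1.48 times the lowest among normal arrays and 1.01 times among knockout arrays, a difference in spread that was not tested. The size of the log2 difference rests on single normal arrays, at 0.044 without normal replicate 1 and 0.33 without normal replicate 3.

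Bambi, a transmembrane pseudoreceptor that lacks the kinase domain and dampens BMP and TGF-beta signals, read 396.0, 289.0 and 281.9 on normal and 305.1, 251.7 and 349.6 on knockout arrays. The groups overlapped, with normal replicate 1 the highest and knockout replicate 2 the lowest. The log2 difference was -0.09 (SE 0.17; limma adjusted p = 0.867), and it was 0.07 without normal replicate 1 and 0.04 without knockout replicate 2, so its sign rests on single arrays.

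Grem1, the secreted antagonist Gremlin 1, was not measured well enough to compare. Its probe set read 6.6, 15.2 and 8.6 on normal and 18.8, 12.5 and 8.8 on knockout arrays. The mean over the arrays lay under the filter level of 14.7, where MAS5 signals scatter widely, and the probe set was left out of the test.

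The Id genes encode small helix-loop-helix proteins without a DNA-binding region, which bind and silence basic helix-loop-helix factors. Id1 read 550.0, 480.5 and 535.2 on normal and 581.3, 556.3 and 603.8 on knockout arrays. All knockout arrays were above all normal arrays, the closest pair being normal replicate 1 and knockout replicate 2. The means were 521.9 ± 36.6 and 580.5 ± 23.8 (SD, n = 3 per group), which is 0.16 as a log2 difference (SE 0.09; limma adjusted p = 0.545), or 1.11 times the normal level with an interval from 0.97 to 1.28. Without normal replicate 2, the lowest array, the log2 difference was 0.097.

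Id2 was measured by 3 probe sets, all with a positive difference. The brightest (1435176_a_at) read 1721.7, 1976.9 and 2142.9 on normal and 2162.9, 2179.7 and 2196.7 on knockout arrays. The groups did not overlap, though normal replicate 3 lay just under the knockout arrays, and the log2 difference was 0.17 (SE 0.09; limma adjusted p = 0.510; interval from 0.98 to 1.29 of the normal level). Without normal replicate 1, the lowest array, it was 0.083.

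The second Id2 probe set (1422537_a_at) read 864.3, 799.7 and 804.6 on normal and 763.8, 785.4 and 1092.6 on knockout arrays. Knockout replicate 3 was the highest array and the other two knockout arrays were the lowest, so the log2 difference of 0.08 (SE 0.13; limma adjusted p = 0.851) became -0.09 without knockout replicate 3. The third (1453596_at) was dim, with 67.8, 30.2 and 52.1 on normal and 61.4, 50.9 and 51.3 on knockout arrays, a log2 difference of 0.20 (SE 0.30; limma adjusted p = 0.831). Its sign rests on normal replicate 2, the lowest array, since without it the difference was -0.13.

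Id3 was the most tightly measured of the members. It read 1797.3, 1935.6 and 1757.8 on normal and 1715.1, 1772.0 and 1932.5 on knockout arrays, and the groups spanned nearly the same range. The log2 difference was -0.02 (SE 0.08; limma adjusted p = 0.944). Its 95% interval ran from 0.87 to 1.12 of the normal level, which leaves out larger changes of this probe set in either direction.

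Smad6, the inhibitory Smad that BMP signalling induces and that blocks receptor Smads, read 334.1, 331.7 and 313.2 on normal and 318.6, 262.2 and 335.9 on knockout arrays. Knockout replicate 2 alone lay below the normal range. The log2 difference was -0.10 (SE 0.12; limma adjusted p = 0.768), with an interval from 0.77 to 1.12 of the normal level, and was 0.0041 without knockout replicate 2.

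Knockout replicate 2 was the lowest of the 6 arrays for 7 of the 13 kept member probe sets, a pattern chosen after the values were seen. By gene, with the brightest probe set of each, these were Bmp2, Bmp4, Bmp7, Bambi and Smad6, 5 of 9. The same array was the lowest for 15.2% of all kept probe sets and 16.9% of all genes, and the median kept probe set stood at -0.0027 on it, on the log2 scale, against the normal mean. The brightest Bmp7 probe set stood at -0.64, Bmp2 at -0.38, Bambi at -0.34, Smad6 at -0.32 and Bmp4 at -0.27 on this array. Id1 at 0.09, Bmper at 0.19 and the brightest Id2 probe set at 0.17 were above the normal mean there.

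Without knockout replicate 2 the log2 difference was -0.29 for Bmp2, -0.07 for Bmp4 and -0.21 for the brightest Bmp7 probe set, and it was 0.07 and 0.14 for the other Bmp7 probe sets. The lower Bmp2 value was therefore seen with and without this array, and the sign of the dimmer Bmp7 probe sets depended on it. The skeletal muscle list (9 of 9 markers above the filter, none at 0) stood at 1.58, 3.81 and -0.02 in knockout replicates 1 to 3 relative to the normal mean. The ureteric epithelium list (10 of 10 above the filter, none at 0) stood at 0.02, -0.31 and -0.06. Its summed signal was 3571 to 4334 on normal and 3119 to 4797 on knockout arrays, with knockout replicate 2 the lowest. Calb1 alone gave 1345.3 to 1913.0 and 1203.8 to 2301.5 of these sums. The renal vesicle list (8 of 8 above the filter, none at 0) was below the normal arrays on every knockout array, at -0.28, -0.47 and -0.37. Its summed signals were 3776 to 4060 on normal and 2816 to 3185 on knockout arrays, of which Ccnd1 alone gave 1818.2 to 2223.5 and 1526.4 to 1733.8. All 8 of the renal vesicle genes had a negative difference, 4 with an unadjusted limma p under 0.05 and 0 past the threshold. Over all genes these shares were 50.6%, 11.7% and 0.602%. Of the 8 nephron progenitor genes, 4 also had an unadjusted limma p under 0.05, and 4 of the 8 had a positive difference. A positive difference was found for 7 of 8 macrophage genes and for all 3 erythroid genes above the filter. In each of these lists 0 genes passed the threshold. The part of these lists in the member values was not tested. In knockout replicate 3, where the muscle list was at the normal level, Bmp2 stood at -0.34 and the brightest Bmp7 probe set at -0.20. On the same array Bmp4 stood at 0.05, the other Bmp7 probe sets at 0.03 and 0.02, Bambi at 0.14 and Smad6 at 0.04.

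**Figure D3:**
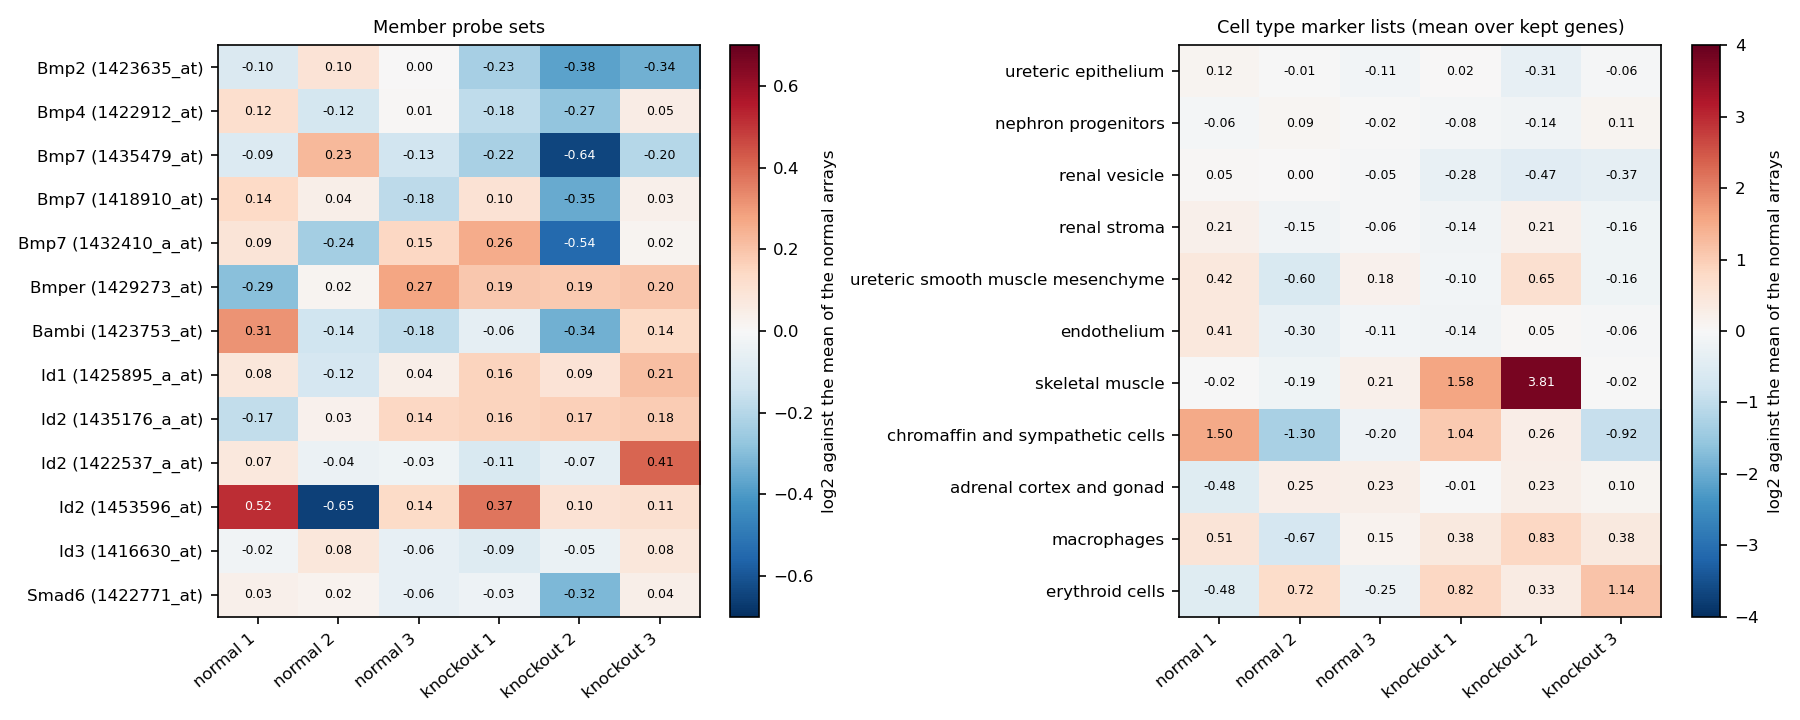
Log2 value on each array against the average of the 3 normal ones (colour and printed numbers), for the 13 kept member probe sets on the left and the mean of each of 11 cell type marker lists on the right, with separate colour scales. Knockout replicate 2 is lowest for all 5 ligand probe sets, Bambi and Smad6, and highest for skeletal muscle, at 3.81.

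The rest of the pathway was read from 52 further genes in 5 lists. Of these, 49 had a probe set and 44 had one above the filter, where each gene was represented by its brightest probe set. None of the 44 passed (limma adjusted p, 0 higher and 0 lower), against 0.602% of all 12464 genes, and 6 had an unadjusted limma p under 0.05, against 11.7%. The groups did not overlap for 7 of the 44, 3 higher and 4 lower, against 19.3% of all genes. The median log2 difference was -0.08, beside -0.0029 over all genes.

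Among receptors and coreceptors (10 of 10 measured, median log2 difference -0.04, 0 passed), the brightest probe set of Bmpr1a, a type I receptor, differed by 0.0046 (SE 0.07; limma adjusted p = 0.988), and its 4 others ran from -0.08 to 0.33. That of Bmpr2, the dedicated type II receptor, differed by -0.0016 (SE 0.07; limma adjusted p = 0.996), and its 2 others stood at -0.05 and -0.22. Rgmb, a GPI-anchored BMP coreceptor also called Dragon, had the smallest p of the list. It read 79.7, 43.9 and 55.0 on normal and 109.0, 101.9 and 105.3 on knockout arrays, all knockout arrays being higher. The log2 difference was 0.87 (SE 0.23; limma adjusted p = 0.202).

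Rgmb had 5 further kept probe sets, of which 4 were also positive, at 0.81, 0.48, 0.39 and 0.34, and 1 was negative, at -0.71. With each array divided by its median signal, its brightest probe set passed, at 0.88 (SE 0.24; limma adjusted p = 0.0382). That scaling let 447 of all kept probe sets pass, against 157 without it. Acvr2b, a type II receptor shared by activins and BMPs, read 627.1, 440.1 and 313.4 on normal and 271.2, 233.7 and 313.2 on knockout arrays. Normal replicate 3 and knockout replicate 3 were nearly equal, and the log2 difference of -0.71 (SE 0.23; limma adjusted p = 0.311) was not seen in its other probe set, at 0.05.

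Of the other ligands (4 of 8 measured, median -0.18, 0 passed), Bmp6 read 40.7, 29.0 and 29.3 on normal and 15.5, 18.9 and 23.5 on knockout arrays, a log2 difference of -0.78 (SE 0.31; limma adjusted p = 0.402). Gdf5, a ligand best known from joints, read 24.2, 20.3 and 18.5 on normal and 31.1, 32.9 and 30.3 on knockout arrays, a log2 difference of 0.59 (SE 0.27; limma adjusted p = 0.447). Neither gene's groups overlapped, but both are dim, close to the filter level.

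Of the other extracellular antagonists and modulators (11 of 13 measured, median 0.10, 0 passed), Kcp, a secreted protein that enhances BMP signalling in the kidney, read 244.9, 215.3 and 224.2 on normal and 185.9, 194.9 and 189.2 on knockout arrays. The groups did not overlap, and the log2 difference was -0.26 (SE 0.11; limma adjusted p = 0.418). Sostdc1, a BMP and Wnt antagonist of the renal epithelium, read 35.8 to 59.4 on normal and 46.9 to 67.1 on knockout arrays, which overlapped (log2 difference 0.41, SE 0.26). Nog, which encodes the antagonist noggin, lay below the filter.

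The Smads and intracellular regulators (9 of 10 measured, median -0.05, 0 passed) gave the narrowest intervals. The receptor Smads Smad1 and Smad5 differed by 0.01 (SE 0.09) and -0.09 (SE 0.09), and the common partner Smad4 by 0.04 (SE 0.08). The 2 other probe sets of Smad5 had the opposite sign, at 0.23 and 0.41 (SE 0.17; limma adjusted p = 0.409), and those of Smad1 stood at 0.17 and -0.0033 and of Smad4 at 0.11 and 0.09. Tob1, an antiproliferative protein that restrains Smad activity, read 537.8 to 633.5 on normal and 636.0 to 668.1 on knockout arrays (log2 difference 0.16, SE 0.09), with no overlap. Ski, a corepressor that binds Smads, differed by -0.38 (SE 0.24), a value carried by normal replicate 1 at 738.0 against 373.2 and 379.9 in the other normal arrays, and its other probe set stood at -0.18.

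Other genes that BMP can switch on (10 of 11 measured, median -0.23, 0 passed) had a negative difference in 8 of 10 by their brightest probe sets. Over all genes this share was 50.6%. The other probe sets of Gata2 and Tcf21 were positive, at 0.11 and 0.54, and the 2 others of Tbx3 were negative, at -0.28 and -0.05. Hey1, a repressor driven by Notch as well as by BMP, read 315.7, 404.7 and 386.0 on normal and 244.5, 171.2 and 232.5 on knockout arrays. All knockout arrays were lower, by -0.78 (SE 0.16; limma adjusted p = 0.0963). For 6 of these 10 genes the lowest value was that of knockout replicate 2, against 16.9% of all genes. In the other lists this held for 1 of 4 ligands and 2 of 10 receptors and coreceptors. It held for 0 of 11 extracellular antagonists and modulators, 1 of 9 Smads and intracellular regulators, and 10 of all 44 pathway genes. Id4, the remaining Id gene, read 417.8, 458.7 and 501.1 on normal and 423.8, 348.3 and 387.0 on knockout arrays, a log2 difference of -0.25 (SE 0.11; limma adjusted p = 0.439), while its 2 other probe sets stood at -0.02 and 0.01.

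**Figure D4:**
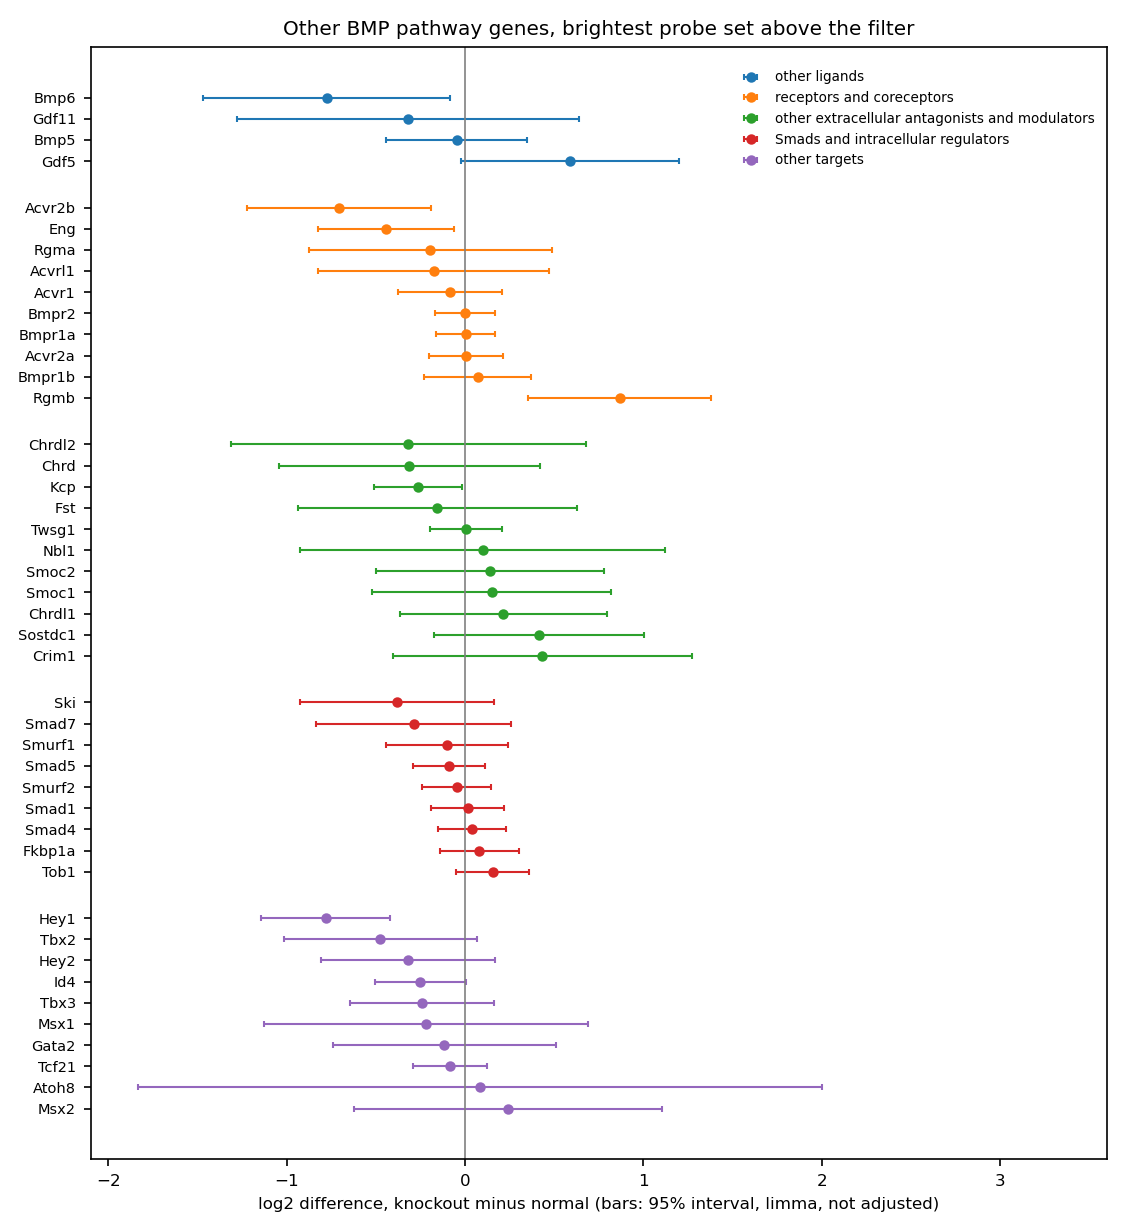
Log2 difference, knockout minus normal (horizontal axis; bars are unadjusted 95% intervals from limma), for the 44 other pathway genes above the filter, coloured by list. Rgmb lies farthest right at 0.87 and Hey1 farthest left at -0.78, and these brightest probe sets of Bmpr1a, Bmpr2, Smad1 and Smad4 lie within 0.05 of 0.

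Genes with the most similar pattern over the 6 arrays were found by the root mean square difference of centred log2 signals among 12455 genes outside the members. For the brightest Bmp7 probe set these were Cxxc5 (0.06), Ndc1 (0.06) and Brca1 (0.06), where the median gene lay at 0.31. For Bambi they were Mettl4 (0.05), St6galnac4 (0.06) and Rnf40 (0.06), and for Id1 Laptm4a (0.02), Rasgrp3 (0.03) and Adamts3 (0.04). How often other patterns over 6 arrays find matches this close was not computed.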

How the data were processed

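Whole embryonic kidneys (1 µg of total RNA per sample, 1 amplification cycle) were hybridised to 6 Affymetrix arrays. The deposited values are MAS5 signal intensity values, 1 for each probe set, which the authors computed with MAS5, per the submitters' processing notes. Its version and detection calls are not stated there. MAS5 subtracts mismatch signal, so dim values scatter. No further scaling was applied. Before log2, a floor of 1.7 (10th percentile of all positive signals) replaced 15 zeros. The 64 control probe sets were left out, and probe sets with a mean log2 signal above the 40th percentile (27022) were kept. Symbols came from the platform annotation, updated by gene identifier: 34945 probe sets had 1 symbol, 932 several and 9160 none here. The 2 groups were tested against each other in R 4.3.3 with limma 3.58.1 (lmFit, eBayes with an intensity trend, Benjamini-Hochberg over all kept probe sets), which was tested on simulated data. Their number, 3 against 3, limits the precision.

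The members, the pathway and marker lists and the rule for named genes (all members and, in each pathway list with none past the threshold, the 2 genes with the smallest p) were chosen with earlier results of these data known. Bmpr1a, Bmpr2, Nog and the Smads are named beyond that rule. Alternatives covered scaling, pseudocount, filter, variance model, array weights, a replicate block, the mean of a gene's probe sets and arrays left out.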

Additional observations from a re-analysis of the deposited data

How the results depend on the processing

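In every alternative run, 0 member probe sets passed (limma), with the smallest adjusted p between 0.301 and 0.776. Of 208 recomputed member differences, 17 changed sign, all when arrays were left out. With each array left out in turn, the differences ranged from -0.200 to 0.069 for Bambi, from -0.163 to 0.068 for 1418910_at and from -0.263 to 0.139 for 1432410_a_at of Bmp7, from -0.086 to 0.172 for 1422537_a_at and from -0.130 to 0.454 for 1453596_at of Id2, from -0.069 to 0.022 for Id3, and from -0.175 to 0.0041 for Smad6. Without both first replicates, the arrays with the highest chromaffin marker levels, Bambi was at 0.056, Id3 at 0.0046 and 1422537_a_at of Id2 at 0.208. Without both knockout arrays high in muscle genes, chosen after seeing the data and assuming that the lone knockout array varies like the normal ones, Bambi was at 0.135, Bmp4 at 0.050, Bmp7 at 0.035 (1418910_at) and 0.017 (1432410_a_at), Id3 at 0.080 and Smad6 at 0.042. Bmp2, the brightest Bmp7 probe set, Bmper, Id1 and the brightest Id2 probe set kept their sign in all 16 alternatives run for each, though not their size. With 1 array left out, they ranged from -0.366 to -0.269, from -0.432 to -0.212, from 0.044 to 0.327, from 0.097 to 0.194 and from 0.083 to 0.241, in that order.

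The count of kept probe sets that passed, 157, became 447 with median scaling, 41 without the intensity trend, 31 without both first replicates, 27 without both muscle-high arrays and from 49 to 148 with 1 array left out. Of those, it was 49, 58, 63 and 95 without knockout replicates 3, 1 and 2 and normal replicate 3. Its cause was not tested. Of the other pathway genes 1 (Rgmb) passed with median scaling and 0 otherwise. The replicate block gave 109 kept probe sets and 0 members. Same-numbered arrays had deviations from their group means correlated at 0.08, -0.11 and -0.20 over all kept probe sets. With 3 arrays per group, these values cannot show whether same-numbered arrays were paired. The first replicates of both groups had the highest chromaffin marker levels. Low signal limits Grem1 and the dim Id2 probe set.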
